A study of Mus musculus with 8 samples.

Results

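The 9 junction genes followed here were found by symbol in the deposited count file: 4 claudins (Cldn1, Cldn4, Cldn7 and Cldn23), occludin (Ocln), the scaffold ZO-1 (Tjp1) and 3 connexins (Gja1, Gjb2 and Gjb6). They were chosen by name, all were present among the 22740 protein-coding genes of the file, and all 9 passed the filter on low counts that left 15163 genes for testing. Each was read in 8 libraries of dorsal mouse skin.

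Neighbouring keratinocytes are held together and sealed by junctions. Tight junctions lie in the granular layer of the epidermis, where claudins and occludin span the membranes of adjoining cells and ZO proteins tie them to actin, so that water and solutes cannot pass freely between cells. Gap junctions are channels built from connexins, through which ions and small metabolites move from one keratinocyte to the next. Mice that lack Cldn1 die after birth from water loss through the skin, and mutations of GJB2 and GJB6 in people cause keratodermas and hearing loss. Connexin 26, the product of Gjb2, is scarce in resting interfollicular epidermis and is known to appear in wounded and hyperproliferative epidermis.

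The mice were female BALB/c animals aged 6 to 8 weeks, all kept on a low-fibre diet, and there were 4 groups with 2 mice each. CTL mice drank water, and butyrate mice drank 400 mM sodium butyrate, a short-chain fatty acid made by gut bacteria from fibre. Lesional skin had been exposed 4 times over 2 weeks to 15 µg of house dust mite (HDM) extract, a common allergen, under an occlusive dressing on shaved back skin, with butyrate started 2 weeks before the first exposure in the treated mice. Baseline skin came from mice without HDM, taken when the butyrate course ended. Thus the groups were baseline CTL (replicates 1 and 2), baseline butyrate (replicates 1 and 3), lesional CTL (replicates 4 and 5) and lesional butyrate (replicates 3 and 4). Baseline and lesional mice carry different leading numbers in their sample names, so HDM exposure and the set of mice cannot be told apart. The middle number of the names splits in the same way between CTL and butyrate mice, and the labels do not say what it stands for. Butyrate and whatever that number marks therefore cannot be told apart. HDM and its occlusive dressing cannot be told apart either, because no group is labelled as given the dressing without HDM. A change with HDM is therefore a difference between lesional and baseline skin. The tissue was whole skin, in which fewer cells of a type and less RNA per cell cannot be told apart.

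The libraries held 18004136 to 21085544 counts, and the 7 basal keratinocyte markers summed to 8081 to 13552 CPM (counts scaled to a common library size with TMM factors) in all 8. Baseline butyrate replicate 3 stood apart from the other 7 libraries. Its 16 hair follicle genes summed to 20900 CPM, against 25.3 to 37.4 CPM elsewhere, and its melanocyte genes to 789 CPM, against 51.8 to 87.2 CPM. In the baseline butyrate pair 26.4% of genes of at least 1 CPM lay more than 2-fold apart, against 1.39 to 4.76% in the other pairs. Because the 4 groups share 1 estimate of the spread, this mouse widens the error of every comparison, so the main results are given with it (8 mice) and without it (7 mice, where the lone baseline butyrate mouse is assumed to vary like the others).

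Gjb2 (connexin 26) and Gjb6 (connexin 30) are neighbours on chromosome 14 of GRCm38, at chr14:57098600-57104702 and chr14:57123303-57133611, both on the minus strand. Their RNAs varied together over the mice, and their start regions are shown for that reason. RefSeq windows on GRCm38.p6, from 250 bases before to 50 after the start, were given for 8 of the 9 genes. The windows below lie at chr14:57104653-57104952 and chr14:57133562-57133861 and read 5′ to 3′ along the minus strand, with GC boxes (GGGCGG on either strand) in capitals.
Gjb2: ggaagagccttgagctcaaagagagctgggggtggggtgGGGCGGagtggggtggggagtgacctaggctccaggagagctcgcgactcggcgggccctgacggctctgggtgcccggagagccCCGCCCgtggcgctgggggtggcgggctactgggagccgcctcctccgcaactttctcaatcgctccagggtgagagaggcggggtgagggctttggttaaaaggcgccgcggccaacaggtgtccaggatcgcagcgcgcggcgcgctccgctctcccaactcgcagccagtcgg
Gjb6: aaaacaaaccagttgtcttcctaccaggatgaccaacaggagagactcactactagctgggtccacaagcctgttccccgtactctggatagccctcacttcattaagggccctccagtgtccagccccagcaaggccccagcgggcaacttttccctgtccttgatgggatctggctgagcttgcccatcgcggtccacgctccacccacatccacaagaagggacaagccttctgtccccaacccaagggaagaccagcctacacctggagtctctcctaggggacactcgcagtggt

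The Gjb2 window held 2 GC boxes and the Gjb6 window 0, so the neighbouring windows differ in this motif. GC boxes were present in 35.7% of all 32851 windows of 300 bases. The AP-1 motif, searched as TGANTCA, which reads alike on both strands, was in neither window and in 7.81% of all windows. Among the other genes it occurred 2 times in the Cldn4 window and once in the Gja1 window, printed here with 10 bases on each side and the motif in capitals, from chr5:134947158-134947184, chr5:134947076-134947102 (both minus strand) and chr10:56377271-56377297 (plus strand). A match describes letters and is not a binding site.
Cldn4, match 1: tctaggctggTGACTCAgtgtctgtgt
Cldn4, match 2: tactggcgggTGACTCAggggcccagg
Gja1: tccttccagtTGAGTCAgtggcttgaa

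Levels of different genes were compared per kilobase of exon (RPKM). In baseline CTL skin Cldn1 was the most abundant of the 9, with a mean of 66.6 RPKM and mice at 74.2 and 59.1. Cldn4 (24.6 RPKM) and Gja1 (21.9 RPKM) came next and their mice overlapped, then Tjp1 (12.8), Cldn23 (11.1), Ocln (6.99), Gjb2 (3.99), Gjb6 (1.16) and Cldn7 (0.200), none of which overlapped with its neighbour. The order was not the same in lesional CTL skin, where Gjb2 stood first with a mean of 150 RPKM, above Cldn1 at 52.8, and Cldn23 had dropped to eighth at 2.74. Lesional butyrate skin again had Cldn1 first, at 71.4 RPKM, and Gjb2 (46.0), Cldn4 (44.6) and Gja1 (37.7) overlapped below it. When coding length replaced exon length, Gja1 passed Cldn4 at baseline and Cldn23 and Ocln passed Tjp1. Cldn1 at baseline and Gjb2 in lesional CTL skin kept the first place, the latter with its lower mouse (381) below both Cldn1 mice (394 and 413 per kilobase of coding sequence).

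**Figure D1:**
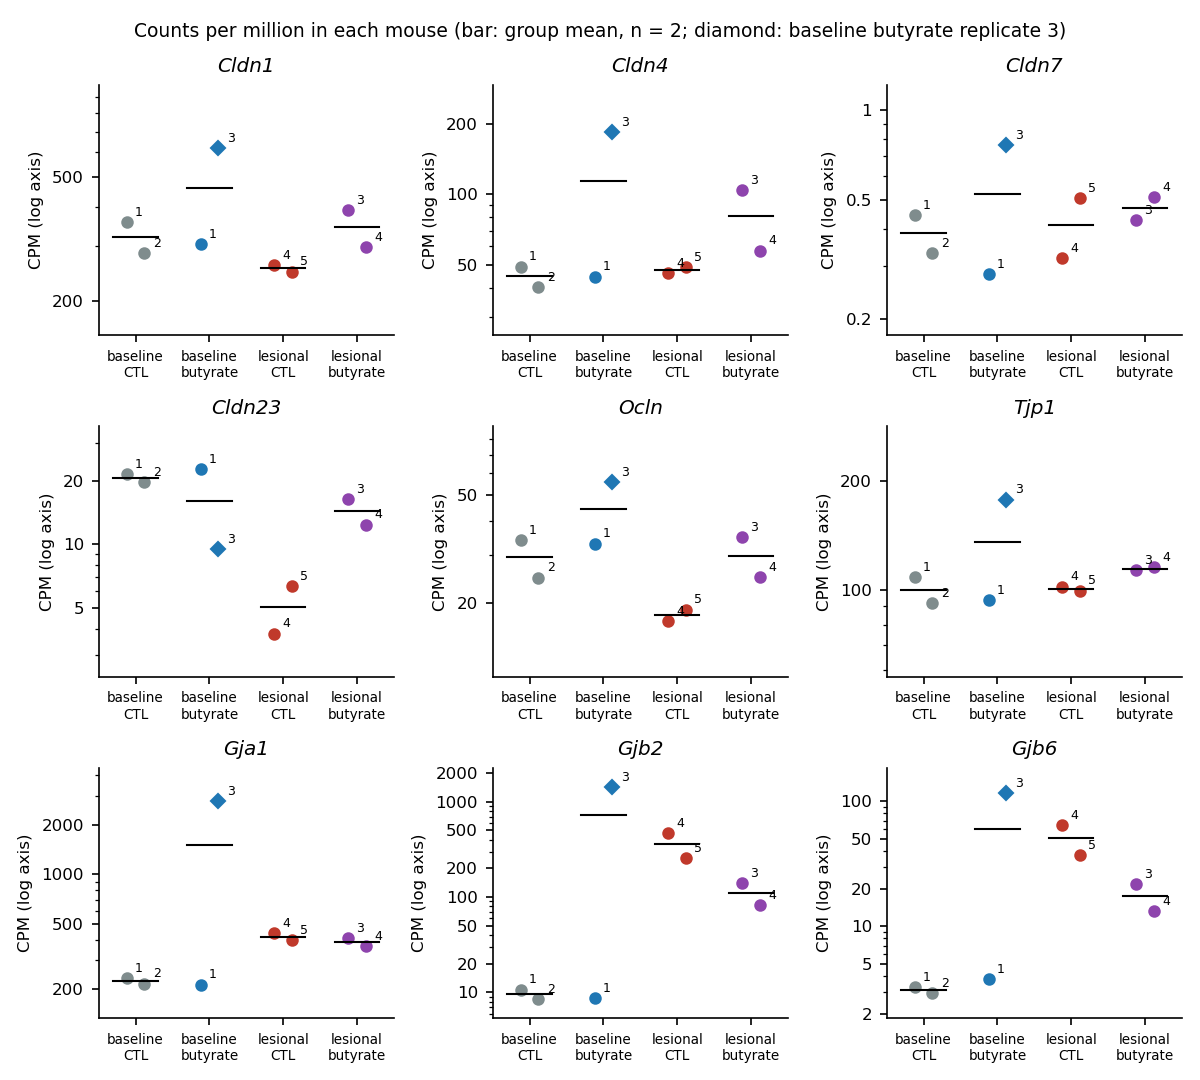
CPM (log axis) of the 9 junction genes in each mouse, numbered by replicate, with a bar at the mean of each group of 2; the diamond marks baseline butyrate replicate 3. Gjb2 and Gjb6 lie lowest in the 3 other baseline mice, highest in that mouse and in lesional CTL mice, and in between in lesional butyrate mice, whereas Cldn23 is lowest in lesional CTL mice.

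Among the tight junction genes, Cldn23 differed most between the groups. Cldn23 encodes a claudin found in differentiated keratinocytes. Baseline CTL mice had 21.5 and 19.7 CPM of it, and lesional CTL mice had 3.79 and 6.32 CPM. The baseline butyrate mice had 22.6 and, in replicate 3, 9.48 CPM, and the lesional butyrate mice had 16.3 and 12.4 CPM. Both lesional CTL mice were thus below every other mouse, and both lesional butyrate mice lay between them and the 3 baseline mice that resembled each other. With HDM, Cldn23 fell 4.06-fold in CTL mice (log2 fold change −2.02, SE 0.47), with an FDR of 0.0957 in edgeR's quasi-likelihood test of 8 mice, where FDR is the p-value adjusted over all genes tested and a call needs an FDR under 0.1 and a change over 2-fold. Without baseline butyrate replicate 3 the FDR was 0.00579 for a log2 fold change of −2.01 (SE 0.27). Leaving out any of the 4 lesional mice or either baseline CTL mouse raised the FDR to between 0.192 and 0.612, with the same direction. In lesional skin Cldn23 was 2.83-fold higher with butyrate (log2 fold change 1.50, SE 0.46), which missed the threshold with 8 mice (FDR = 0.871) and passed it with 7 (1.50, SE 0.26, FDR = 0.0864). The 4 lesional mice fitted alone did not call it (FDR = 0.196). Between butyrate and lesional state the interaction was 1.86 (SE 0.64, FDR = 0.840) with 8 mice and 1.36 (SE 0.41, FDR = 0.495) with 7, so a different effect of butyrate in lesional and baseline skin was not shown.

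The summed markers of the differentiated epidermis moved with Cldn23, but not each of their genes. The 7 suprabasal genes, which include keratins 1 and 10, summed to 17391 to 18552 CPM in the 3 other baseline mice, 5183 and 6734 CPM in lesional CTL mice and 16967 and 13116 CPM in lesional butyrate mice. The 6 granular layer genes listed summed to 1658 to 1969 CPM, then 736 and 813 CPM, then 2085 and 1300 CPM in the same order. Baseline butyrate replicate 3 was low on both sums, with 3785 and 836 CPM, but not on each gene. The sums were carried by abundant genes such as Krt10, at 6949.7 and 6666 CPM in baseline CTL mice and 835 and 1697 CPM in lesional CTL mice. Involucrin (Ivl) was at 147 and 147 CPM at baseline and 165 and 167 CPM in lesional skin of CTL mice, Casp14 at 126 and 102 against 215 and 153 CPM, Tgm3 at 28.1 and 24.0 against 84.1 and 40.4 CPM, and Dsc1 at 206 and 176 against 231 and 224 CPM, so these 4 were not lower in the lesions. In baseline butyrate replicate 3 Ivl was at 344, Tgm3 at 134, Dsc1 at 292 and Calml3 at 241 CPM, each above the 3 other baseline mice. The other genes of both lists were lower in replicate 3 than in those mice, with Krt10 at 1065 CPM. The part of these cells in the level of Cldn23 was not tested.

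Occludin, a second strand protein of tight junctions, differed less. Ocln was at 34.2 and 24.9 CPM in baseline CTL mice, 33.2 and 55.8 CPM in baseline butyrate mice, 17.2 and 19.0 CPM in lesional CTL mice and 34.9 and 25.0 CPM in lesional butyrate mice. Again the lesional CTL mice were the lowest pair and overlapped with no other mouse. The HDM difference in CTL mice was −0.71 on the log2 scale (SE 0.31, FDR = 0.276) with 8 mice, and −0.70 (SE 0.22, FDR = 0.0589) with 7, where it passed the FDR but not the fold limit. With butyrate in lesional skin Ocln was 0.73 log2 units higher (SE 0.31, FDR = 1.000; 7 mice, SE 0.22, FDR = 0.209), which did not pass.

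Cldn1, the most abundant epidermal claudin, had 359 and 286 CPM at baseline and 262 and 249 CPM in lesional skin of CTL mice. In butyrate mice it had 305 and 619 CPM at baseline and 393 and 298 CPM in lesional skin. The lesional butyrate mice lay above the lesional CTL mice. Lesional butyrate replicate 4 (298 CPM) was within the range of the baseline mice other than butyrate replicate 3. Lesional butyrate replicate 3 (393 CPM) was above those baseline mice and below baseline butyrate replicate 3 (619 CPM). No comparison of Cldn1 passed: the log2 difference was −0.34 (SE 0.35) for HDM in CTL mice and 0.44 (SE 0.35) for butyrate in lesional skin, with an FDR of 0.322 for the latter when 7 mice were used.

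Cldn4, a claudin of several simple and stratified epithelia, was at 49.2 and 40.1 CPM in baseline CTL mice and at 46.3 and 48.9 CPM in lesional CTL mice. Those pairs overlapped. It reached 104 and 57.5 CPM with butyrate in lesional skin, higher in both mice than in either CTL lesion, and the baseline butyrate pair had 44.5 and 184 CPM. The difference with butyrate in lesional skin was 0.77 log2 units (SE 0.63, FDR = 1.000 with 8 mice; SE 0.28, FDR = 0.280 with 7), and the lower mouse of the butyrate pair, at 57.5 CPM, was close to the higher CTL mouse, at 48.9 CPM.

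Tjp1, which encodes the cytoplasmic scaffold ZO-1, was the steadiest of the genes. It had 108 and 91.6 CPM in baseline CTL, 93.7 and 178 CPM in baseline butyrate, 102 and 99.3 CPM in lesional CTL and 113 and 115 CPM in lesional butyrate mice. With 7 mice its log2 differences ran from −0.09 (butyrate at baseline, SE 0.13) to 0.29 (HDM in butyrate mice, SE 0.13), and none passed. Cldn7, a claudin of many simple epithelia, was barely detected, with 5 to 16 counts in a library and 0.282 to 0.762 CPM. At this depth a difference in Cldn7 between the groups was not detectable, and in the fits without baseline butyrate replicate 3 the gene fell below the filter.

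Of the 9 genes, Gjb2 and Gjb6 had the largest fitted changes with HDM in CTL mice. Gjb2 was at 10.7 and 8.55 CPM in baseline CTL mice and 466 and 258 CPM in lesional CTL mice. The lesional butyrate mice had 139 and 82.1 CPM, and the baseline butyrate mice had 8.68 CPM and, in replicate 3, 1430.3 CPM. All 4 lesional mice were above the 3 other baseline mice, and both lesional butyrate mice were below both lesional CTL mice. Gjb2 rose 37.7-fold with HDM in CTL mice when 7 mice were used (log2 fold change 5.23, SE 0.42, FDR = 0.00206). With 8 mice the same change had an SE of 1.94 and missed the threshold (FDR = 0.221). The 4 CTL mice fitted alone also called it, with Gjb6 and Cldn23. In butyrate mice it rose 12.8-fold with 7 mice (3.67, SE 0.54, FDR = 0.0356), against the single baseline butyrate mouse left. The 8-mouse value for the same comparison had the opposite sign, −2.70 (SE 1.71, FDR = 0.561), with replicate 3 at 1430.3 CPM in the baseline pair.

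With butyrate in lesional skin Gjb2 was 3.27-fold lower (log2 fold change −1.71, SE 0.35 with 7 mice, FDR = 0.112). It did not pass there or with 8 mice (SE 1.65, FDR = 1.000). The interaction of butyrate and lesional state was −7.94 (SE 2.58, FDR = 0.840) with 8 mice and −1.56 (SE 0.60, FDR = 0.552) with 7, so the smaller HDM change in butyrate mice was not shown to differ from that in CTL mice.

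Gjb6, whose connexin 30 can share channels with connexin 26, followed Gjb2 at a lower level. It had 3.28 and 2.94 CPM in baseline CTL mice, 3.78 and 117 CPM in baseline butyrate mice, 64.2 and 37.2 CPM in lesional CTL mice and 21.9 and 13.3 CPM in lesional butyrate mice. The order of the groups was that of Gjb2, replicate 3 of the baseline butyrate pair included. With HDM, Gjb6 rose 16.3-fold in CTL mice (log2 fold change 4.02, SE 0.39, FDR = 0.00307) and 4.65-fold in butyrate mice (2.22, SE 0.49, FDR = 0.0639) with 7 mice. With 8 mice the values were 4.02 (SE 1.41, FDR = 0.201) and −1.78 (SE 1.25, FDR = 0.604). In lesional skin it was 2.88-fold lower with butyrate (−1.53, SE 0.33, FDR = 0.120 with 7 mice), which did not pass. The 2 genes did not change in equal measure: per kilobase, Gjb2 exceeded Gjb6 by 2.56 to 3.62 times in the 3 other baseline mice, by 6.86 to 8.06 times in the 4 lesional mice and by 13.6 times in baseline butyrate replicate 3.

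Gja1 encodes connexin 43, the connexin of basal and spinous keratinocytes that many other skin cells also make. Its level was 233 and 216 CPM in baseline CTL mice, 437 and 396 CPM in lesional CTL mice, 408 and 365 CPM in lesional butyrate mice, and 213 and 2782 CPM in baseline butyrate mice. Apart from replicate 3, all lesional mice were above all baseline mice, and the lesional groups overlapped. The HDM difference was 0.89 log2 units in CTL mice (SE 0.12, FDR = 0.00566) and 0.86 in butyrate mice (SE 0.15, FDR = 0.0451) with 7 mice, and so passed the FDR but stayed under 2-fold in each. With 8 mice neither passed (0.89, SE 0.96 and −1.95, SE 0.99). For butyrate in lesional skin the log2 difference was −0.11 (SE 0.12, FDR = 0.741 with 7 mice).

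Injury and cell cycle sums were higher in the lesional mice than in the 3 baseline mice other than butyrate replicate 3. So were Gjb2, Gjb6 and Gja1. The 9 injury-induced genes, among them Krt6a, Krt16 and the calgranulins S100a8 and S100a9, summed to 1205 and 1057 CPM in baseline CTL mice, 12525 and 7863 CPM in lesional CTL mice and 6406 and 4297 CPM in lesional butyrate mice. The 2 baseline butyrate mice had 1078 and 3373 CPM. Over the 7 mice without that last one, the order of the mice on this sum was their order on Gjb2. Replicate 3 broke it, with the highest Gjb2 at a middling sum, and the hair follicle genes were high there. Krt17 (2671 CPM) and Krt6a (597 CPM) carried that sum in replicate 3. The other listed injury genes were at 44.6 CPM (Krt16) or less in that mouse, with S100a8 at 7.86 and S100a9 at 4.00 CPM. The 7 cell cycle genes, Mki67 and Top2a among them, summed to 315 to 347 CPM in the 3 other baseline mice. They summed to 562 and 469 CPM in lesional CTL mice and 468 and 535 CPM in lesional butyrate mice. The lesional groups thus overlapped on this sum, as they did on Gja1 but not on Gjb2 or Gjb6. Baseline butyrate replicate 3 had 854 CPM, and Gjb2, Gjb6 and Gja1 were also highest there. Neutrophil genes summed to 18.5 and 20.7 CPM in baseline CTL mice, 361 and 347 CPM in lesional CTL mice and 88.5 and 99.7 CPM in lesional butyrate mice. Skeletal muscle genes were lower in the lesional mice, at 14710 to 27518 CPM against 48243 to 55429 CPM in the 3 other baseline mice. They were lowest in baseline butyrate replicate 3, a mouse without HDM, at 11276 CPM. The part of these cells and of the cell cycle in the connexin levels was not tested.

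**Figure D2:**
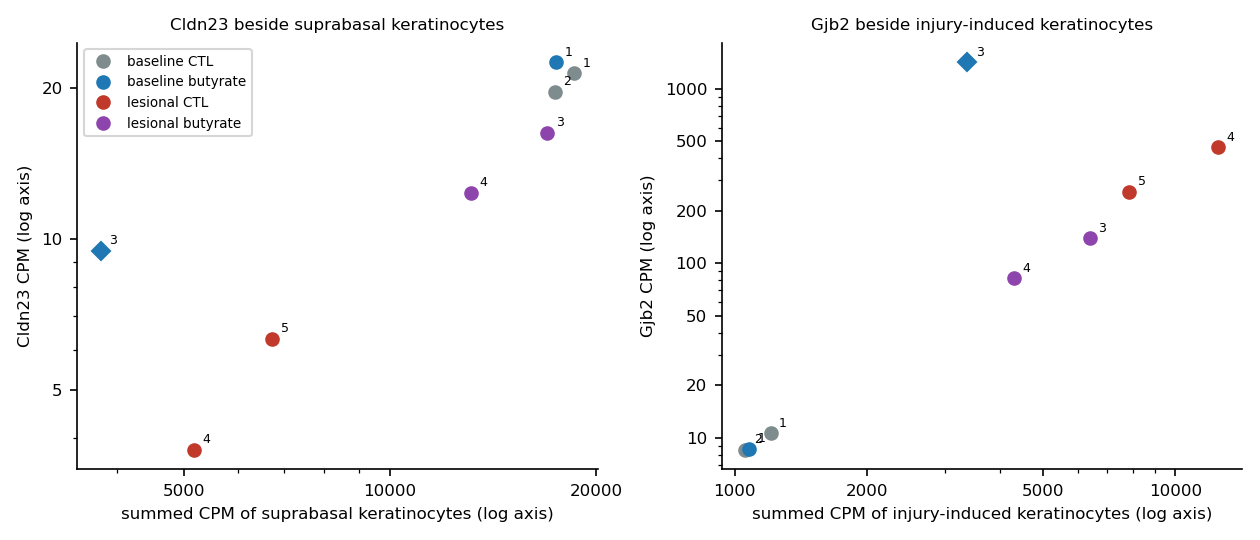
Left, Cldn23 against the summed suprabasal keratinocyte genes. Right, Gjb2 against the summed injury-induced genes, all in CPM on log axes, 1 point per mouse coloured by group and numbered by replicate. Points other than the diamond (baseline butyrate replicate 3) broadly rise together in each panel, from 3.79 to 22.6 CPM for Cldn23 and from 8.55 to 466 CPM for Gjb2.

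Across the 9 genes, HDM in CTL mice called 1 (Cldn23, lower) with 8 mice, where 3.58% of all genes tested were called. With 7 mice it called 3 of the 8 genes tested (Cldn23 lower, Gjb2 and Gjb6 higher) beside 12.5% of all genes, and with the 4 CTL mice alone the same 3 beside 12.9%. HDM in butyrate mice called 0 of 9 with 8 mice, beside 0.35% of all genes, and 2 of 8 (Gjb2 and Gjb6, higher) with 7 mice, beside 5.94%. The 4 butyrate mice fitted alone, replicate 3 among them, called 0 of the 9. Butyrate in lesional skin called 0 of 9 with 8 mice, where 0.0% of all genes were called and 734 of them, 1 of the 9 included, had an unadjusted p under 0.05. DESeq2 called 132 genes and limma-voom 1 in that comparison, with none of the 9. Using 7 mice, it called 1 (Cldn23, higher) beside 1.22% of all genes, and with the 4 lesional mice alone it called 0 of the 9.

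Butyrate in baseline skin called none of the 9 with 8 or with 7 mice, beside 0.0% of all genes in both, with 529 and 346 genes at an unadjusted p under 0.05. DESeq2 called 133 genes there, Gjb2 and Gjb6 included, and limma-voom 0. The fitted differences at baseline rested on replicate 3: with 8 mice they were 6.23 for Gjb2 (SE 2.03), 4.27 for Gjb6 (SE 1.42), 2.74 for Gja1 (SE 1.02) and 1.36 for Cldn4 (SE 0.63), and with 7 mice they were −0.15, 0.28, −0.07 and −0.0040 with SEs of 0.14 to 0.51. When replicate 1 was left out instead, replicate 3 was alone in its group. The differences were then 7.21 for Gjb2, 5.22 for Gjb6, 3.63 for Gja1, 2.04 for Cldn4 and −1.12 for Cldn23. The interaction called none, with 0.0% of all genes and 703 genes under an unadjusted p of 0.05, against 118 genes in DESeq2, Gjb6 included, and 0 in limma-voom.

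The pairs of mice can also be compared without a model. In lesional skin both butyrate mice were above both CTL mice for 5 genes (Cldn1, Cldn4, Cldn23, Ocln and Tjp1), below them for 2 (Gjb2 and Gjb6) and overlapped for 2, while 44.9% of all genes tested did not overlap. HDM in CTL mice separated 6 of the 9, with Gja1, Gjb2 and Gjb6 higher and Cldn1, Cldn23 and Ocln lower, beside 75.2% of all genes. Butyrate at baseline separated 1 (Gjb6, higher), beside 29.7%, and HDM in butyrate mice 0, beside 32.5%. A share of separated genes near that of all genes is no result about these genes, and for 2 mice against 2 an exact permutation test cannot give a two-sided p under 0.333.

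**Figure D3:**
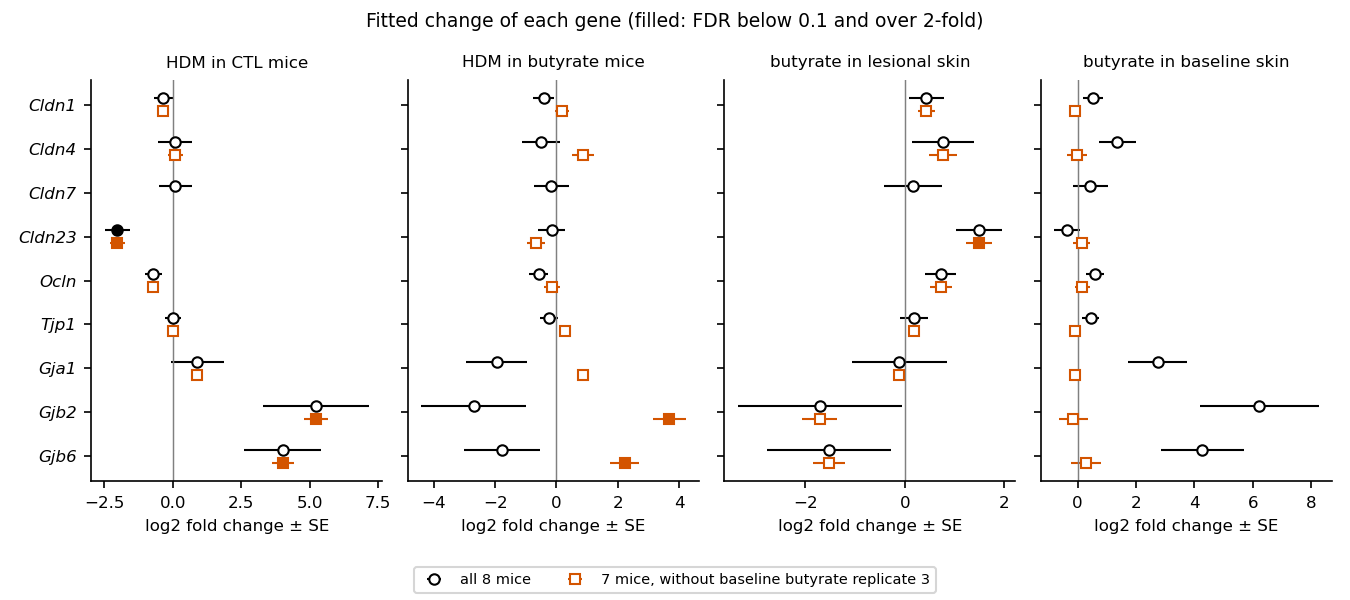
Fitted log2 fold change with its standard error for each of the 9 genes in 4 comparisons, with all 8 mice (circles) and without baseline butyrate replicate 3 (squares); filled symbols passed an FDR of 0.1 and a 2-fold change. Removing that mouse shortens the bars, most of all those of Gjb2, Gjb6 and Gja1. It turns the HDM change in butyrate mice from negative to positive for these genes and for Cldn1, Cldn4 and Tjp1. The values for HDM in CTL mice and for butyrate in lesional skin stay in place.

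The make-up of the connexin RNA shifted with HDM. Per kilobase, Gjb2 supplied 1.92 to 2.47% of the summed RPKM of 20 connexin genes in the 3 other baseline mice. In lesional CTL mice it made up 49.0 and 38.6%, and in lesional butyrate mice 19.3 and 16.2%, so that its share was highest in the CTL lesions among these mice and in between in the butyrate lesions. The connexin sum itself was 167 to 188 RPKM in the 3 baseline mice, 395 and 278 in lesional CTL mice and 301 and 210 in lesional butyrate mice. Baseline butyrate replicate 3 had a sum of 1027 RPKM, with 57.9% from Gjb2 and 26.4% from Gja1.

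Claudin RNA kept a steadier make-up. Cldn1 supplied 34.4 to 38.9% of the summed RPKM of the 24 genes carrying a claudin symbol in all 8 mice. Cldn4 supplied 13.7 to 14.6% in the 3 other baseline mice, 17.0 and 18.0% in lesional CTL mice, 25.2 and 18.7% in lesional butyrate mice and 30.2% in baseline butyrate replicate 3. Cldn23 went from 6.08 to 7.27% at baseline to 1.37 and 2.29% in lesional CTL mice and 3.87 and 3.96% in lesional butyrate mice. The most abundant of the other claudins, at a mean of 37.4 RPKM, was the gene the file calls Cldn25, whose identifier belongs to Cldnd1 in the annotation used here, a relative and not a strand-forming claudin. This gene took from 11.3% (baseline butyrate replicate 3) to 28.9% (lesional CTL replicate 4) of the sum. Shares of the sum without it would be higher for the other genes in every mouse.

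**Figure D4:**
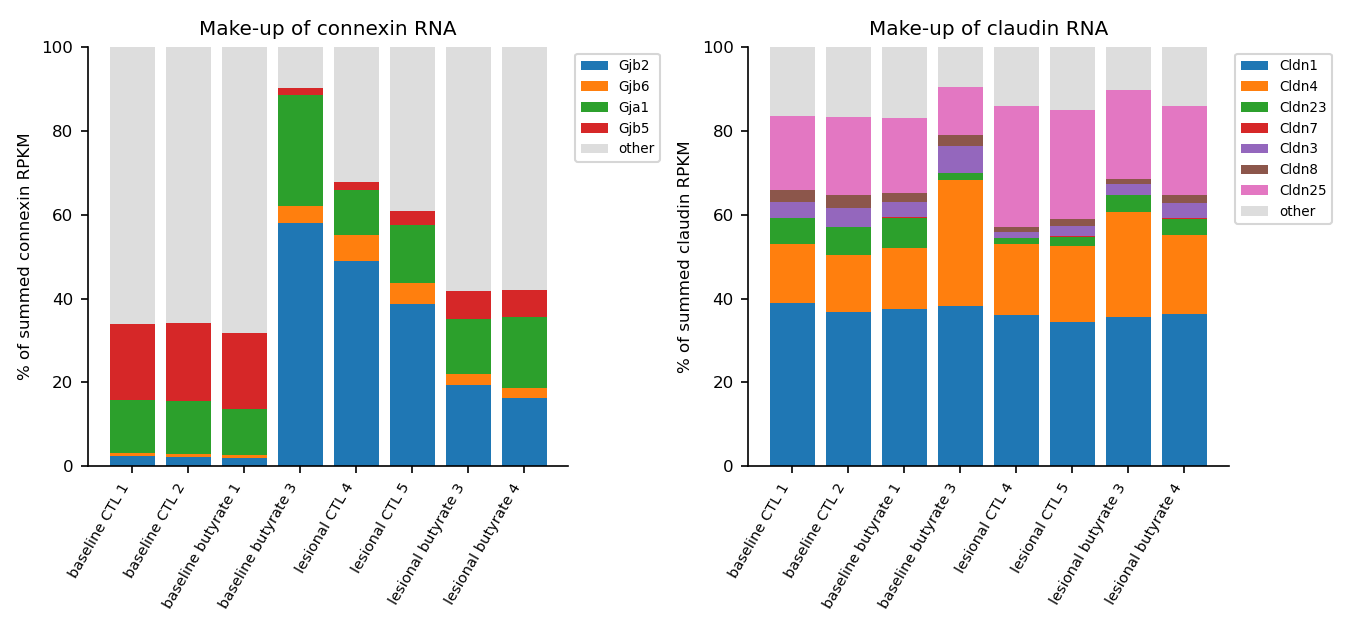
Share (percent, bars from 0 to 100) of the summed RPKM of 20 connexin genes (left) and 24 genes with a claudin symbol, Cldn25 included (right), taken by single genes in each of the 8 mice. Gjb2 takes 1.92 to 2.47% of connexin RNA in 3 baseline mice and 16.2 to 49.0% in the lesional mice, while Cldn1 takes 34.4 to 38.9% of the right-hand sum in every mouse.

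Other junction genes were read from 6 lists of relatives. Of 21 other claudins and claudin relatives in the file 10 were tested. The 21 include Cldnd2 and the gene the file calls Cldn25, so they are not strand-forming claudins alone. The 10 tested genes had a median log2 fold change of −1.04 for HDM in CTL mice, beside −0.02 over all genes, and 2 of 10 were higher. None passed with 8 mice, and with 7 mice 4 of 11 fell, beside 939 of all 15349 genes tested: Cldn10 (−1.69, SE 0.39), Cldn8 (−1.40, SE 0.26), Cldn19 (−1.26, SE 0.19) and Cldn3 (−1.22, SE 0.25), with FDRs of 0.00808 to 0.0260. Cldn3 was at 8.95 and 8.94 CPM in baseline CTL, 2.88 and 4.75 CPM in lesional CTL and 7.73 and 7.77 CPM in lesional butyrate mice, so that only the CTL lesions were low among these. Under butyrate in lesional skin 9 of the 10 tested genes of this list were higher, with a median of 0.53 beside −0.01 for all genes. None passed with 8 mice.

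Among 27 tight junction scaffold, polarity and signalling genes, all tested, 1 fell with HDM in CTL mice with 8 mice, beside 3.58% of all genes called in either direction: Cgn, which encodes cingulin, a cytoplasmic plaque protein that binds ZO-1. Cgn had 77.2 and 65.8 CPM in baseline CTL, 11.5 and 19.2 CPM in lesional CTL and 44.6 and 35.5 CPM in lesional butyrate mice. It fell with HDM in CTL mice by 2.22 on the log2 scale (SE 0.37, FDR = 0.0499 with 8 mice; FDR = 0.00450 with 7). With butyrate in lesional skin it was higher by 1.38 (SE 0.25 with 7 mice). It was not called there with 8 mice or with the 4 lesional mice alone. With 7 mice the log2 difference of Amot, a polarity protein gene, with HDM was −1.66 (SE 0.35) in CTL mice and −1.59 (SE 0.40) in butyrate mice. The median of the 27 was −0.30 for HDM in CTL mice. The most abundant per length was Ybx3, at a mean of 197 RPKM, a nucleic acid binding partner of ZO-1.

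Of 12 other tight junction transmembrane genes 11 were tested, and the median was −0.08 for HDM in CTL mice and 0.24 for butyrate in lesional skin. None passed with 8 mice. With 7 mice the log2 difference of Marveld2, which encodes tricellulin of tricellular contacts, was −1.08 (SE 0.18) for HDM in CTL mice. F11r, the gene of JAM-A, was the most abundant of them, at 44.4 RPKM.

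Of 17 other connexins 9 were tested, with a median of −0.16 for HDM in CTL mice. Gjb5, which encodes connexin 31.1, was at 55.8 and 53.9 CPM in baseline CTL, 13.5 and 16.2 CPM in lesional CTL and 33.4 and 23.8 CPM in lesional butyrate mice. Its direction was opposite to that of Gjb2, and it fell with HDM in CTL mice by 1.88 on the log2 scale (SE 0.37, FDR = 0.0705 with 8 mice), beside 3.58% of all genes called. With 7 mice its log2 difference with HDM in butyrate mice was −1.02 (SE 0.21). The log2 difference of the endothelial connexin gene Gja5 with HDM was 1.00 (SE 0.20) in CTL mice when 7 mice were used.

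Of the pannexins, channel proteins related in shape to connexins, 2 of 3 were tested and none passed with 8 or 7 mice, and Panx3 was the most abundant at 6.16 RPKM. All 13 adherens junction genes were tested, with a median of −0.04 for HDM in CTL mice, and Ctnnb1, the gene of beta-catenin, led at 120 RPKM. With 8 mice 1 passed: Nectin3, an adhesion receptor, fell with HDM in CTL mice (−1.71, SE 0.31, FDR = 0.0602) and in butyrate mice (−2.31, SE 0.32, FDR = 0.0925). Of all genes tested, 3.58% and 0.35% were called in these comparisons, in that order. Nectin3 had 47.7 and 44.1 CPM in baseline CTL and 12.2 to 18.4 CPM in the 4 lesional mice, and here the lesional groups overlapped. The calls of Cgn, Gjb5 and Nectin3 in CTL mice with 8 mice were lost when any 1 of the 4 lesional or 2 baseline CTL mice was left out (FDR 0.130 to 0.531), as was that of Nectin3 in butyrate mice (FDR 0.283 to 0.686), with the directions kept.

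**Figure D5:**
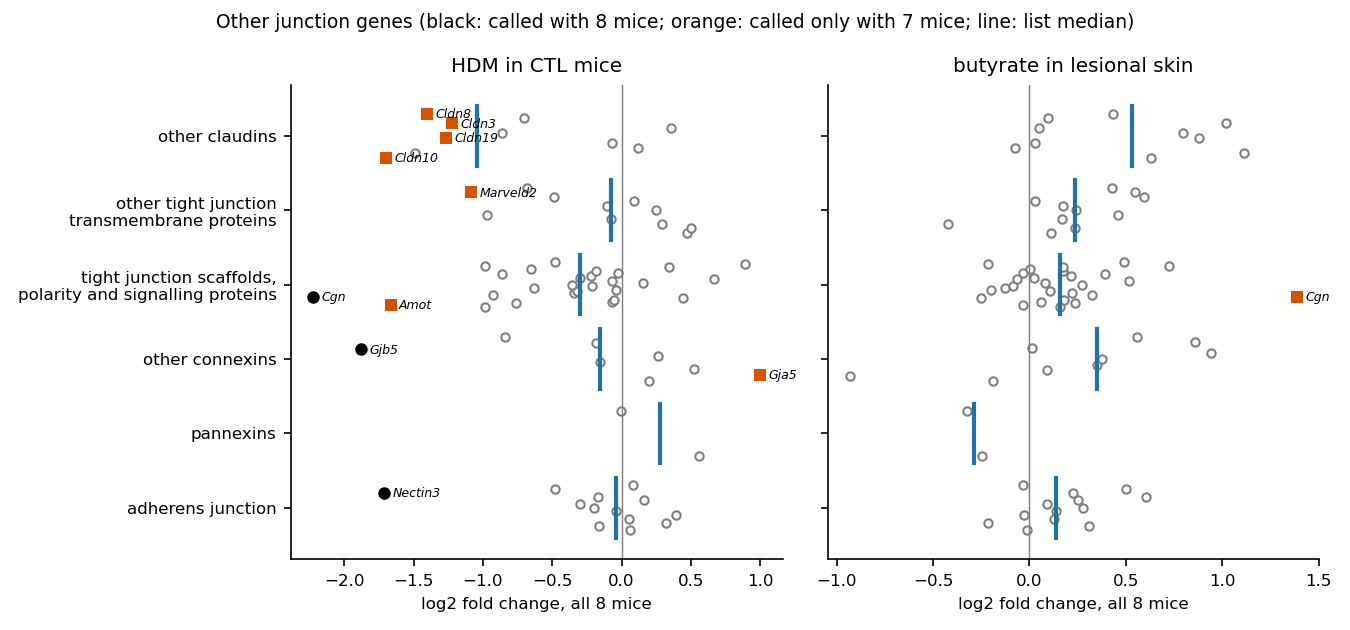
Log2 fold change from the 8-mouse fit of the tested genes in 6 junction lists that are reported here, for HDM in CTL mice (left) and butyrate in lesional skin (right), with the list median as a line; black points passed with 8 mice and orange points with 7 mice only. Genes of the list of other claudins, claudin relatives included, lie mostly below 0 on the left (median −1.04) and above 0 on the right (median 0.53). Cgn is the lowest point on the left and the highest on the right.

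For each of the 9 genes the 2 most alike of 10927 genes with at least 10 CPM on average were found by Pearson's r of log2 CPM over the 8 mice. These r values describe the same 8 libraries and are driven in part by baseline butyrate replicate 3. Cldn23 was most like Serpina12 (r = 0.990) and Flg2 (0.988), a serpin and a filaggrin relative of the cornified layer, and without replicate 3 these were 0.993 and 0.994. Gjb6 was most like Senp5 (0.997) and Gjb2 (0.996), and Gjb2 most like Mtpn (0.997) and Ptpn1 (0.997). Cldn1 was most like Zmym2 (0.993) and Zfp266 (0.988), and Cldn4 most like Atp6v1d (0.995) and Egr3 (0.993). Ocln went with Zfp952 (0.983) and Pdxdc1 (0.980), Tjp1 with Zfp84 (0.995) and Ubl5 (0.993), and Gja1 with Lbr (0.997) and Pinlyp (0.996). For Cldn7, with Atp11a (0.963) and Samd8 (0.957), the counts are too low for the likeness to be read. Among the 9 themselves, Gjb2 and Gjb6 had r = 0.994 without replicate 3, Cldn1 and Ocln 0.890, and Cldn23 and Gjb6 −0.902.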

How the data were processed

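Whole dorsal skin of 8 mice was sequenced with a TruSeq RNA kit. The authors aligned reads to GRCm38 with STAR 2.5.2 and deposited raw reverse-stranded featureCounts counts per protein-coding gene, which were used as deposited. Genes with too few counts were removed (filterByExpr, minimum count 10), leaving 15163, and counts were scaled by TMM. The main test was edgeR 4.0.16's quasi-likelihood test (R 4.3.3) over 4 group means, with calls at an FDR (Benjamini-Hochberg) under 0.1 and more than 2-fold change. limma 3.58.1 (voom, the study's method), DESeq2 1.42.0, the 4 mice compared alone, RLE scaling, no filter, no fold limit and leaving out each mouse were alternatives. The steps were tested on simulated counts. RPKM used merged exon lengths of GENCODE annotation, and exons of the 9 genes overlapped no other gene. The 9 genes, the lists and the rules were chosen with earlier results of these data known. Named were the 9, called and most abundant genes of each junction list, and the 2 most alike genes, except a few connexins that are not reported here. Labels name 8 samples, with 2 per group, which were taken as separate mice. The p-values measure the spread between these samples.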

Additional observations from a re-analysis of the deposited data

Results flagged for a closer look

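In lesional skin both butyrate mice had less Gjb6 than both CTL mice, and at baseline both had more. The interaction was −5.80 on the log2 scale with 8 mice (SE 1.87, FDR = 0.840) and −1.81 with 7 (SE 0.60, FDR = 0.516), and neither passed. Baseline butyrate replicate 1, at 3.78 CPM, was just above the CTL mice at 3.28 and 2.94 CPM, and replicate 3 was at 117 CPM.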

How the results depend on the processing

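No paired analysis was possible because no 2 groups compared have more than 1 replicate number in common. With 2 mice a group, only large or even changes can pass, and the 2 baseline butyrate mice move the counts most: without replicate 3 the spread falls (187, 0, 1911, 912 and 0 genes called, in the order given for single mice below), and without replicate 1 replicate 3 is alone in its group, which gives the highest counts there. Cldn7, with 5 to 16 counts, is limited by depth. Genes called for butyrate in lesional skin numbered 0 with 8 mice, 1 in limma-voom, 132 in DESeq2, 25 with the 4 mice compared and 14 with those in limma-voom. For butyrate at baseline DESeq2 called 133 genes (2 of the 9) against 0. HDM in CTL mice called 543 genes, against 1102 in DESeq2, 1918 with 4 mice and 1913 with 4 mice in limma-voom, and of the 9 genes 1, against 3 in each of these, 0 in limma-voom with 8 mice and 0 without a filter. HDM in butyrate mice called 53 genes, against 804 in DESeq2, 0 with 4 mice and 0 with those in limma-voom. The interaction called 118 genes and 1 of the 9 in DESeq2, against 0. Leaving out single mice gave 0 to 191, 0 to 3777, 0 to 1936, 0 to 2990 and 0 to 3275 genes and 0 to 1, 0 to 5, 0 to 3, 0 to 4 and 0 to 5 of the 9, in the order butyrate in lesional skin, butyrate at baseline, HDM in CTL mice, HDM in butyrate mice and interaction.

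Leaving out single mice turned the sign of 22 of the 45 log2 differences of the 9 genes, whose lowest and highest values follow. For butyrate at baseline they were −0.081 and 0.94 (Cldn1), −0.0040 and 2.04 (Cldn4), −1.12 and 0.14 (Cldn23), −0.092 and 0.83 (Tjp1), −0.074 and 3.63 (Gja1), and −0.15 and 7.21 (Gjb2). For HDM in butyrate mice they were −0.84 and 0.18 (Cldn1), −1.18 and 0.86 (Cldn4), −0.65 and 0.60 (Cldn23), −0.63 and 0.29 (Tjp1), −2.84 and 0.86 (Gja1), −3.69 and 3.67 (Gjb2), and −2.72 and 2.22 (Gjb6). For the interaction they were −0.50 and 0.52 (Cldn1), −1.27 and 0.77 (Cldn4), −0.79 and 0.12 (Cldn7), −0.19 and 0.56 (Ocln), and −0.64 and 0.28 (Tjp1), and the Cldn1 interaction was 0.00033 in limma-voom against −0.083. HDM in CTL mice gave −0.048 and 0.25 (Cldn4), −0.27 and 0.38 (Cldn7), and −0.10 and 0.13 (Tjp1), and butyrate in lesional skin −0.11 and 0.55 (Cldn7). Of 355 values with a mouse left out 300 kept direction and side of the threshold, and of 248 under other settings 236 did.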
